A study of Mus musculus with 16 samples.

Results

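The contacts of gene promoters were followed from naive mouse embryonic stem cells (ESC, day 0) to epiblast-like cells (EpiLC, day 2) in the parental wild-type line DNMT_WT. Promoter-capture Hi-C was used, which joins DNA fragments that lie close together in fixed nuclei, enriches the products for promoter fragments and counts what each promoter was joined to. The comparison rests on 4 samples of 16, namely 2 of DNMT_WT ESC and 2 of DNMT_WT EpiLC, chosen by their labels. ESC were grown in medium with 2i and Lif, which holds them in the naive state, and chromatin was cut with HindIII. The other groups, used here as background, were the same stages of DNMT_KO (no Dnmt1, Dnmt3a or Dnmt3b, the DNA methyltransferases), of TET_KO (no Tet1, Tet2 or Tet3, the enzymes that start removal of methylation) and of TET_WT, the parental line of TET_KO. DNMT_WT carries no stated deletion, and each line stands for itself only.

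The values came as 1 column per line and stage, so the 2 replicates of a group could not be told apart and no value below has a replicate error unless a test is named. Each listed contact joins a promoter fragment to another fragment and carries the authors' CHiCAGO score, which weighs the reads joining them against those expected at that distance; a score of 5 is the usual calling threshold. The table held 260860 contacts of 20017 promoter fragments. Sequencing depth per sample is unknown. No gene expression was measured here, so the cell type could not be checked against marker genes; the contacts of marker promoters are described further on, and a contact does not show that a gene is expressed.

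Naive ESC and EpiLC bracket the exit from naive pluripotency. During that step the genome regains DNA methylation, naive factors such as Nanog and Klf4 give way to Otx2 and Fgf5, and many developmental regulators are held silent by Polycomb complexes, which are known to bring distant target genes into contact. Promoters meet distal enhancers mostly within the same megabase-scale domain, so contacts within 1 Mb are described apart from longer ones.

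Within 1 Mb, slightly fewer contacts passed the threshold in EpiLC than in ESC. At a score of 5 or more, 85122 contacts were found in ESC and 80270 in EpiLC, a ratio of 0.943. Counts under 100 kb went from 17305 to 16716, and those of 100 kb to 1 Mb from 67817 to 63554. The other lines had more in EpiLC within 1 Mb: 78433 and 82680 in DNMT_KO, 82964 and 88495 in TET_WT, and 88961 and 95206 in TET_KO. This difference between lines was not tested, since each line gives a single pair of columns.

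Many contacts within 1 Mb passed the threshold at 1 stage only. Of those at 5 or more in ESC, 42545 were also at 5 or more in EpiLC, which is 49.98% of the ESC list and 53.0% of the EpiLC list. Counting as gained a contact under 3 in ESC and at 5 or more in EpiLC, 15738 of 235974 contacts scored in both columns were gained (6.67%), and 17092 were lost by the reverse rule (7.24%). Kept contacts spanned a median of 197 kb, gained contacts 304 kb and lost contacts 301 kb. Whether a contact was kept went with its score: 35.0% of ESC contacts scoring 5 to 7 reached 5 in EpiLC, against 63.8% of those scoring 7 to 10, 89.7% of those scoring 10 to 20 and 98.6% of those at 20 or more. Contacts with a promoter fragment at the other end were kept in 57.1% of cases, and contacts with a fragment holding no promoter in 49.0%.

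Longer contacts were more numerous in EpiLC, and chromosome 4 held a large share of them. Contacts of 1 to 10 Mb at 5 or more went from 1515 in ESC to 4362 in EpiLC, those over 10 Mb from 427 to 2145 and those between chromosomes from 490 to 1214. Without promoters on chromosome 4 the counts were 1308 and 2327 for 1 to 10 Mb (ratio 1.78), 326 and 512 over 10 Mb (1.57), and 430 and 814 between chromosomes (1.89). For 1 to 10 Mb without chromosome 4, DNMT_KO had 835 and 2345, TET_WT 1898 and 3250, and TET_KO 3045 and 4075, so EpiLC had more in each line. Over 10 Mb the counts were 343 and 424 in DNMT_KO, 548 and 653 in TET_WT, and 647 and 468 in TET_KO. Between chromosomes they were 775 and 781, 867 and 1112, and 605 and 563, so TET_KO had fewer in EpiLC in both of these classes.

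**Figure D1:**
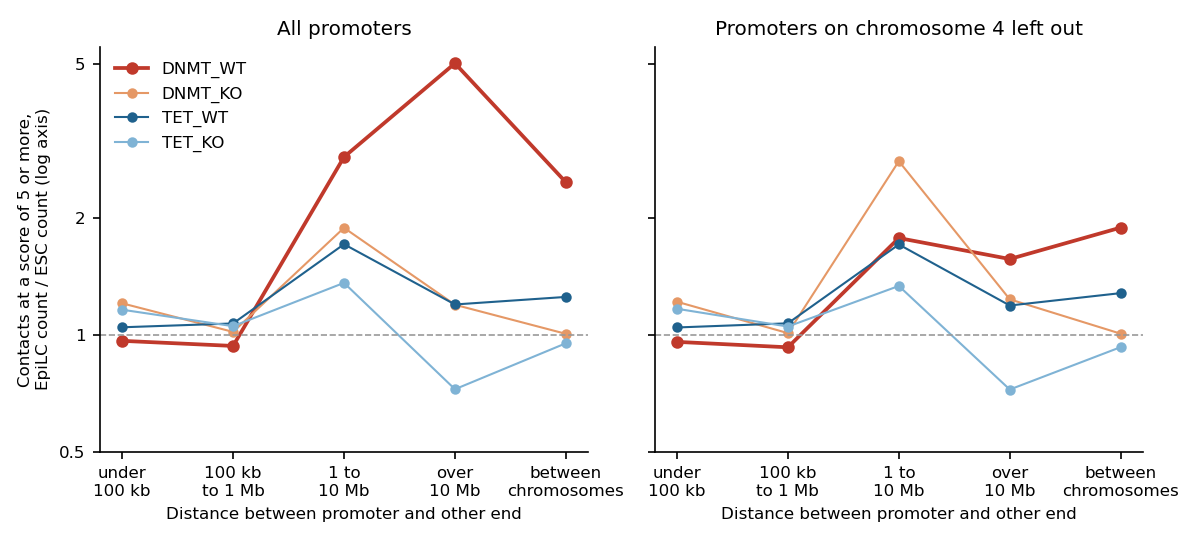
The ratio of EpiLC to ESC contact counts at a score of 5 or more is plotted on a log axis for 5 distance classes, with 1 line per cell line. With all promoters (left) DNMT_WT reaches 5.02 over 10 Mb; without promoters on chromosome 4 (right) its ratio there is 1.57, and within 1 Mb it lies just under 1 in both panels.

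The long contacts of chromosome 4 lay almost entirely in its last part. Of 3180 listed contacts within chromosome 4 spanning over 5 Mb, 3115 joined 8 pairs of 5 Mb windows between 125 and 160 Mb. At 5 or more there were 205 in DNMT_WT ESC and 2222 in DNMT_WT EpiLC, with 1597 gained, 203 kept and 0 lost. DNMT_KO had 1755 in ESC and 1933 in EpiLC, TET_WT 9 and 19, and TET_KO 8 and 10. The ESC column of DNMT_WT is thus low beside the other 3 DNMT columns, while both TET lines are near 0 at both stages. Nearly all of these contacts are listed through DNMT columns. Of the 3180, 21 carry a score in all 8 columns and 2537 in both DNMT_WT columns. A TET count near 0 can therefore stand for missing scores as well as low ones. The same windows also met other chromosomes. Contacts between chr1 at 75 to 80 Mb and chr4 at 140 to 145 Mb numbered 7 in DNMT_WT ESC, 328 in DNMT_WT EpiLC, 138 and 161 in DNMT_KO, and 0 in each TET column. This pair is listed through DNMT columns only, and whether its TET scores were missing or low was not counted. Contacts between chr4 at 155 to 160 Mb and chr18 at 35 to 40 Mb numbered 16 in DNMT_WT ESC, 62 in DNMT_WT EpiLC, 59 and 56 in DNMT_KO, 39 and 38 in TET_WT, and 32 and 35 in TET_KO, so DNMT_WT ESC was low there and the TET lines were not. With 1 column per stage, a difference between the stages and a difference between the cultures sampled cannot be told apart here.

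The 5 promoters that gained the most of these long chromosome 4 contacts were those of SNORD103.1 (155 gained, 17 at 5 or more in ESC and 208 in EpiLC), U6.866 (107 gained, 56 and 166), SNORD103.2 (61 gained, 11 and 82), Sdc3 (54 gained, 11 and 78) and Hes2 (43 gained, 12 and 67). SNORD103 encodes a small nucleolar RNA, U6.866 is a copy of the U6 spliceosomal RNA, Sdc3 a cell-surface heparan sulphate proteoglycan and Hes2 a repressor of the Hes family. Within 1 Mb the same 5 promoters differed by 0.18, -0.55, -0.51, -0.32 and -0.60 on the asinh scale explained next, so their gain lay in the long contacts. No promoter lost a long chromosome 4 contact by the rule used.

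Outside chromosome 4 long contacts were both gained and lost. The pairs of 5 Mb windows with the most gained contacts were chr1 at 0 to 5 with 85 to 90 Mb (191 gained, 97 lost), chr13 at 20 to 25 Mb with itself, which holds the main histone gene cluster (112 gained, 60 lost), chr11 at 70 to 75 Mb with itself (75 gained, 9 lost), chr8 at 90 to 95 with chr11 at 65 to 70 Mb (74 gained, 7 lost) and chr11 at 85 to 90 with 100 to 105 Mb (68 gained, 4 lost). The first pair and the histone pair also led the losses, followed by chr2 at 85 to 90 Mb (16 lost, 15 gained), chr12 at 15 to 20 with 20 to 25 Mb (15 lost, 14 gained) and chr7 at 15 to 20 with 20 to 25 Mb (14 lost, 25 gained). Some contacts between chromosomes reached 5 in DNMT_WT ESC alone. Between chr4 at 40 to 45 Mb and chr10 at 85 to 90 Mb there were 26, between chr8 at 105 to 110 Mb and chr10 at 55 to 60 Mb 21, between chr6 at 105 to 110 Mb and chr7 at 10 to 15 Mb 13, and between chr3 at 105 to 110 Mb and chr10 at 105 to 110 Mb 13, with 0 at 5 or more in each of the other 7 columns. All of these contacts are listed through DNMT_WT ESC alone, so being high in that column only was set by the listing. In each pair 0 contacts were lost, so none had a DNMT_WT EpiLC score below the lower limit of that rule. A count of 0 in another column can therefore stand for missing scores, and how many were missing was not counted. These pairs were chosen after their values were seen.

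Each promoter was then given 1 value per column, the mean asinh of the scores of its listed contacts after quantile normalisation between columns. On this scale a difference of 0.69 is a doubling of high scores, and the scale flattens for scores near 0. Within 1 Mb, 15228 promoters had at least 3 contacts, with a median of 10. The median promoter value was 1.99 in ESC and 1.96 in EpiLC, and the central 90% of differences ran from -0.65 to 0.54. By a doubling or more, 336 promoters were higher in EpiLC (2.21%) and 629 were lower (4.13%). Without scaling between columns the split was 438 higher and 518 lower, and after dividing each column by its mean 395 and 593. Promoters past a doubling had few contacts, with a median of 5 in each direction. Over contacts at any distance, 486 of 15677 promoters were higher (3.1%) and 644 lower (4.11%).

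The long chromosome 4 contacts had little part in these values, for a reason of missing scores. Of the 3180 such contacts, 21 carry a score in all 8 columns, as the normalisation requires, and 2537 in both DNMT_WT columns. With every contact scored in both DNMT_WT columns and normalisation between those columns alone, 588 promoters were higher and 851 lower; 113 of the 588 had a long chromosome 4 contact, and 38 of the 113 were still past a doubling once these contacts were left out. From the long chromosome 4 contacts alone, 106 of 108 promoters were higher and 0 lower, with a median value of 0 in ESC and 2.38 in EpiLC. Of the 3180, 205 reached 5 in DNMT_WT ESC and 2222 in DNMT_WT EpiLC, so this direction was in part set by the listing. In the same setting, contacts within 1 Mb gave 261 higher and 840 lower. Within 1 Mb, and without chromosome 4, 304 of 14265 promoters were higher (2.13%) and 594 lower (4.16%).

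**Figure D2:**
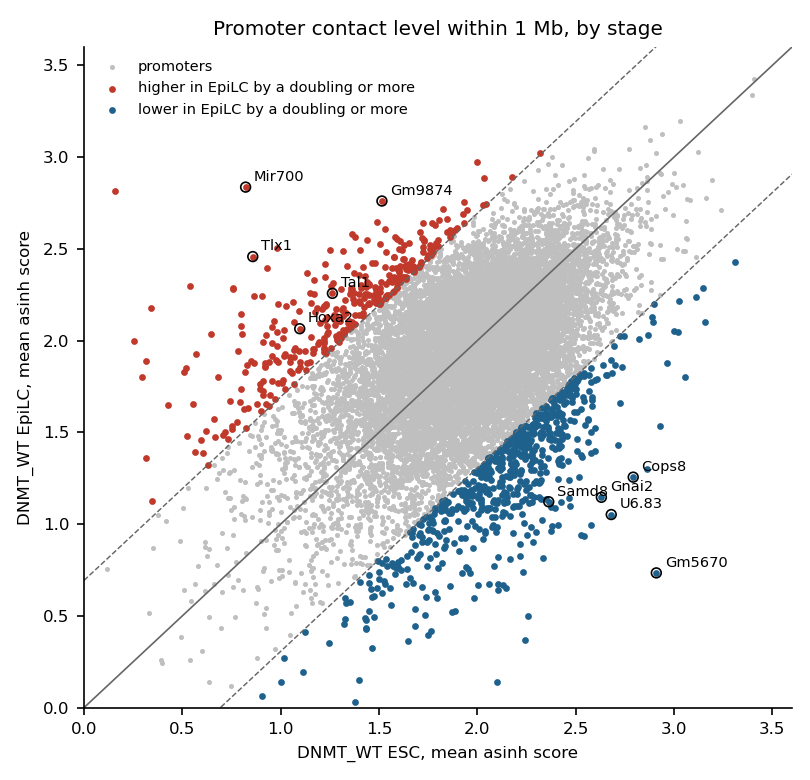
Each point is 1 of 15228 promoters, with its mean asinh score over contacts within 1 Mb in DNMT_WT ESC (x axis) and EpiLC (y axis); dashed lines mark a doubling each way. The 336 promoters above the upper line and the 629 below the lower line are coloured, and 10 of the named promoters are ringed.

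Tlx1, a homeobox gene needed to form the spleen, rose from 0.86 in ESC to 2.46 in EpiLC over 10 contacts within 1 Mb (difference 1.60). Its 7 contacts at 367 to 566 kb upstream scored between 0 and 0.80 in ESC and between 5.29 and 8.38 in EpiLC. A contact is listed only where some column reached 5, and for at least 5 of these 7 that column was DNMT_WT EpiLC alone, so the gap between the stages was in large part set by the listing. Of these, 3 lay in Pax2, a paired-box regulator of kidney, eye and midbrain, and scored 6.74 to 8.38 in EpiLC. A pair of contacts on the other side, at 591 and 594 kb in Fgf8, a ligand that patterns the gastrulating embryo, went from 3.73 to 6.39 and from 2.33 to 4.12. The median score of the upstream contacts was 0.18 in DNMT_WT ESC and 6.72 in EpiLC, 0.72 and 3.95 in DNMT_KO, 0.03 and 1.67 in TET_WT, and 0.17 and 1.71 in TET_KO, higher in EpiLC in each line. The Tlx1 promoter (chr19:45150465-45150714, plus strand, GRCm38), shown with the promoters of Tal1 and Cops8 so that a rise and a fall described in detail below can be set beside it, is given as the 250 bases before the start of its RefSeq transcript, with each CG, the dinucleotide that DNA methyltransferases act on, in capitals.
Tlx1: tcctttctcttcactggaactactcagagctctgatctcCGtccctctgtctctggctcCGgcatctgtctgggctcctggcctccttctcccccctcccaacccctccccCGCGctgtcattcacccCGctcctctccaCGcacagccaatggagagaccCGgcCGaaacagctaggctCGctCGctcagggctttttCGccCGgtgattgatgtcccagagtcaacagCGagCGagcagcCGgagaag
Tal1: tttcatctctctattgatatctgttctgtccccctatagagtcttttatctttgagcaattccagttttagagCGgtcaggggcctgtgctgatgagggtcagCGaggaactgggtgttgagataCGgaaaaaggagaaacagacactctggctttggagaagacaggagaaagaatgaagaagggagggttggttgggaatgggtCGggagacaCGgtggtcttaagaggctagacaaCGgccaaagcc
Cops8: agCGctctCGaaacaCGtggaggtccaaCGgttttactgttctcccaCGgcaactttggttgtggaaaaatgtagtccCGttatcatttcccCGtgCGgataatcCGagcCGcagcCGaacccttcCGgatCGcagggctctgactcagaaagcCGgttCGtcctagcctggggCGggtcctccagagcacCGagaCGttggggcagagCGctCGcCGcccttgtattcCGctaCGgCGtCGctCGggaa
The Tal1 window is chr4:115056176-115056425 and the Cops8 window chr1:90603175-90603424, both on the plus strand. These windows hold 15, 6 and 26 CG, against a median of 6 over 32851 RefSeq promoters of the same length.

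A contact between 2 developmental regulators appeared between Lhx5, a LIM homeobox gene of the forebrain, and Tbx3, a T-box gene active in naive cells and later in limb and heart. From the Lhx5 promoter (chr5:120431324-120435891), 8 contacts reached fragments in or next to Tbx3, 753 to 790 kb away. They scored at most 0.10 in DNMT_WT ESC (7 of them scored) and between 4.48 and 22.02 in EpiLC, with 7 of 8 at 5 or more. From the Tbx3 promoter (chr5:119669457-119673921), 4 contacts to fragments in or next to Lhx5 scored 0 in ESC and between 6.82 and 13.26 in EpiLC. In DNMT_KO the Lhx5 contacts scored 0 in ESC and between 1.09 and 14.77 in EpiLC. In both TET lines they stayed low at both stages, with a highest EpiLC score of 0.83 in TET_WT and 2.01 in TET_KO. These Lhx5 and Tbx3 contacts are all listed through DNMT_WT or DNMT_KO EpiLC. The gaps between stages and between lines were thus in large part set by the listing. The promoter values within 1 Mb were 1.67 and 1.94 for Lhx5 (36 contacts) and 1.70 and 1.46 for Tbx3 (24 contacts), ESC first. They leave out 3 of the 8 and 1 of the 4 contacts, which lack a score in some column. Contacts over 100 kb between 2 regulators of the developmental lists were few. Of 20 such contacts, 4 were gained and 0 lost in DNMT_WT, against 7.09% and 7.79% of all contacts of 100 kb to 1 Mb, the other two gains being Hoxb13 with Hoxb3 (0.27 to 6.88) and Irx3 with Irx5 (2.58 to 5.03). This set was put together after the Lhx5 and Tbx3 values were seen.

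Tal1, the master regulator of blood and vessel formation, rose from 1.26 to 2.26 over 31 contacts (difference 0.99), with 24 of them higher in EpiLC. The change lay in 20 contacts at 802 to 973 kb, in and between Mknk1, Kncn, Dmbx1 and Nsun4, of which 19 were higher in EpiLC. Their scores ran from 0 to 5.91 in ESC (median 0.64, with 1 at 5 or more) and from 2.26 to 8.94 in EpiLC (median 5.12, with 11). In DNMT_KO the median of these 20 went from 1.36 to 5.55, in TET_WT from 2.86 to 2.88 and in TET_KO from 1.39 to 2.53. The contacts beside the promoter, at 12 and 14 kb upstream, were near 5 at both stages (5.39 and 4.97, and 6.25 and 4.87). Tal1 lies on chromosome 4 at chr4:115056162-115069246, outside the paired windows.

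In the HoxA cluster, which patterns the hindbrain and body axis, Hoxa2 and Hoxa13 moved apart. Hoxa2 rose from 1.10 to 2.07 over 10 contacts (difference 0.97). Hoxa2 gained mainly a stretch 964 to 996 kb away at lower coordinates, where 5 contacts had a median of 1.21 in ESC and 6.18 in EpiLC. In DNMT_KO their median was 0.05 and 2.66. In the TET lines it was higher in ESC, at 4.25 and 0.59 in TET_WT and 4.63 and 0.64 in TET_KO. Hoxa13 fell from 2.12 to 1.21 over 19 contacts, with 5 lost and 0 gained; its differences in the other lines were -0.87, -0.39 and -0.45.

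The largest rise of all named promoters was that of Mir700, a microRNA on chromosome 4 (chr4:135415694-135419214), from 0.82 to 2.84 over 32 contacts. Its mature arms, with the target-pairing seed at bases 2 to 8 in capitals, are the following (chr4:135416601-135416622 and chr4:135416561-135416581, minus strand, RefSeq, GRCm38).
mmu-miR-700-5p: uAAGGCUCcuuccugugcuugc
mmu-miR-700-3p: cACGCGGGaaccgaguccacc
Of the contacts, 22 reached 710 to 920 kb toward lower coordinates, chiefly into Man1c1, a Golgi mannosidase. They scored from 0 to 2.93 in DNMT_WT ESC and from 3.74 to 30.38 in EpiLC. In DNMT_KO they were high at both stages (median 7.80 and 9.53), and in the TET lines the median was 0 at both. This is the order of columns seen for the long chromosome 4 contacts, and Mir700 lies inside the same windows. The 22 contacts are listed through DNMT_WT EpiLC or DNMT_KO, and none reached 5 in DNMT_WT ESC or a TET column. Their gaps between stages and between lines were thus in large part set by the listing. Promoters inside the paired windows had a median difference of 0.06 within 1 Mb (385 promoters), against -0.03 for other chromosome 4 promoters (578) and -0.03 on other chromosomes (14265).

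A second place where DNMT_WT ESC was low and DNMT_KO high at both stages was chr17 at 30 Mb. Gm9874 rose from 1.52 to 2.76 over 50 contacts, 48 of them higher in EpiLC, reaching mostly into Dnah8, an axonemal dynein, and Glp1r, the receptor of the incretin GLP-1. Their median scores were 2.13 and 8.17 in DNMT_WT, 6.24 and 7.14 in DNMT_KO, 2.60 and 2.76 in TET_WT, and 2.51 and 1.92 in TET_KO. At 5 or more there were 3 and 42 in DNMT_WT, 34 and 41 in DNMT_KO, 7 and 7 in TET_WT, and 3 and 2 in TET_KO. The contacts are thus listed mainly through DNMT_WT EpiLC and DNMT_KO, and the gap to the low columns was in large part set by the listing. Glo1, which detoxifies methylglyoxal, rose from 1.17 to 2.33, with all 11 contacts higher. Over the 1 Mb window, 8 of 9 promoters were above 0 with a median of 0.79, against -0.20 in DNMT_KO, -0.21 in TET_WT and 0.04 in TET_KO.

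Chromosome 8 showed a small rise spread over many promoters. Its median difference was 0.13 (778 promoters), against -0.03 over all promoters and -0.04, 0.03 and 0.01 for chromosome 8 in DNMT_KO, TET_WT and TET_KO. At chr8:70 Mb all 43 promoters were above 0, with a median of 0.46; among them are Ddx49, an RNA helicase, Jund, an AP-1 factor, and Gdf1, a ligand of the Nodal pathway. Ddx49 rose from 1.44 to 2.55, with 22 of 22 contacts higher; contacts at 5 or more went from 1 to 20 in DNMT_WT, from 3 to 4 in DNMT_KO, from 7 to 8 in TET_WT and from 2 to 1 in TET_KO. Many of these 22 contacts reached 5 in DNMT_WT EpiLC alone, so their rise and the gap to the other lines were in large part set by the listing. Pnpla6, a phospholipase, lies elsewhere on chromosome 8 and rose from 1.34 to 2.41. The windows were ranked after their values were seen.

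The other named rises were SNORA17.501 (1.31 to 2.49), SNORA53.1 (1.37 to 2.37), Olfr1410 (0.97 to 2.11) and Rpp21 (1.18 to 2.18). SNORA17.501, named for a small nucleolar RNA, was past a doubling in DNMT_KO (0.91) and TET_KO (0.77) too, and 0.51 in TET_WT. SNORA53.1 reached mostly into Anks1b. The 12th rise was Hoxa2 at 0.968, and the next promoter outside the named set was Papss2 at 0.966.

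**Figure D3:**
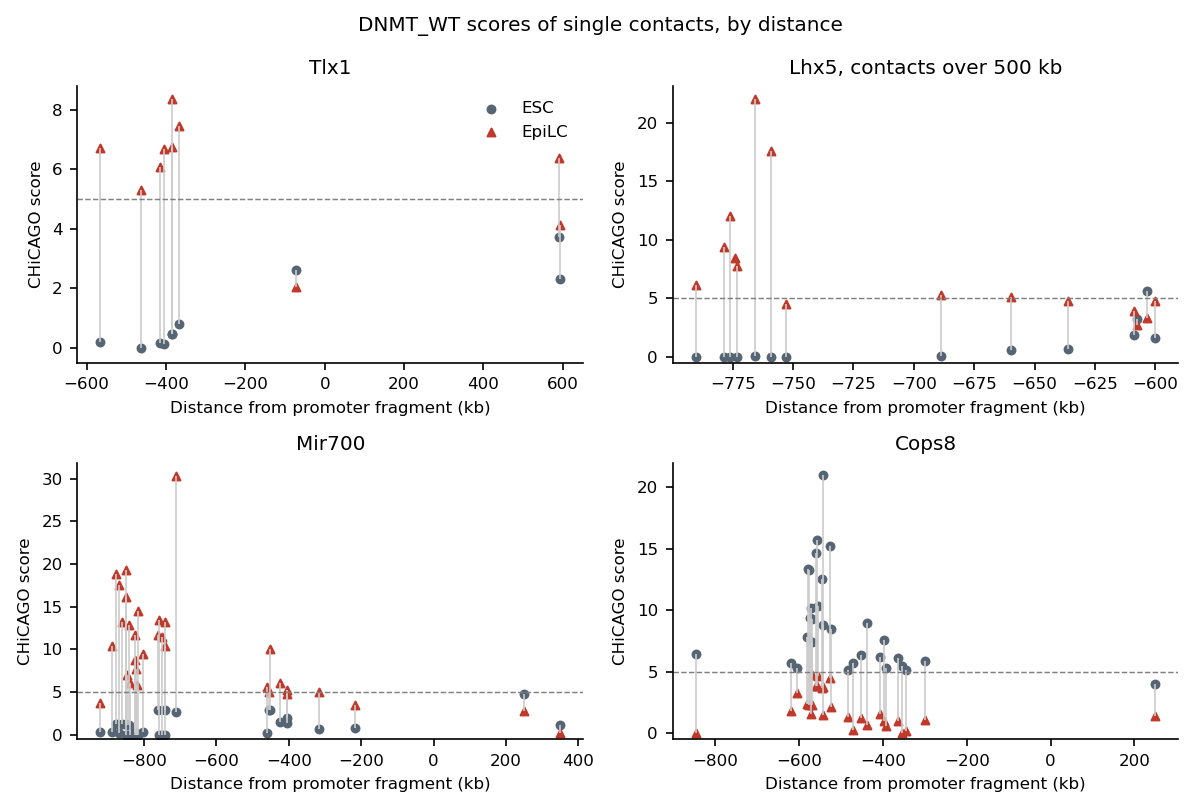
CHiCAGO scores of single contacts in DNMT_WT ESC (grey circles) and EpiLC (red triangles) are plotted against the distance of the other end from the promoter fragment, with the threshold of 5 dashed. Clusters of contacts rise together for Tlx1 between 367 and 566 kb, for Lhx5 between 753 and 790 kb and for Mir700 between 710 and 920 kb, and fall together for Cops8; the Lhx5 panel shows contacts over 500 kb only.

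The largest fall was at Gm5670, from 2.91 in ESC to 0.73 in EpiLC over 10 contacts. Its 6 contacts with Lrmda, 351 to 377 kb away, scored from 9.29 to 27.02 in DNMT_WT ESC and from 0 to 0.29 in EpiLC. In the other 6 columns none of the 6 scored over 1.65. They are listed through DNMT_WT ESC alone, so being high in that column only was set by the listing. U6.83, a U6 RNA copy near Cldn10 on chr14, fell from 2.68 to 1.05, with all 49 contacts lower and 44 at 5 or more in ESC against 1 in EpiLC. The number at 5 or more for U6.83 was 2 and 1 in DNMT_KO, 2 and 2 in TET_WT, and 25 and 16 in TET_KO. Since 44 of its 49 contacts passed the listing in DNMT_WT ESC, the fall was in part set by it.

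Cops8, a subunit of the COP9 signalosome, which regulates cullin ubiquitin ligases, fell from 2.79 to 1.26, with all 30 contacts lower. At 5 or more, 29 of the 30 were found in ESC and 0 in EpiLC. Many of them reached 5 in DNMT_WT ESC alone, so the fall of Cops8 was in part set by the listing. Its 18 contacts beyond 500 kb had medians of 9.76 and 2.35 in DNMT_WT, 5.23 and 2.99 in DNMT_KO, 3.15 and 3.23 in TET_WT, and 5.05 and 5.02 in TET_KO. Asb18, at the other side of this region, fell from 2.56 to 1.45, and its contact with the Cops8 promoter, 589 kb away, went from 13.29 to 0. That contact scored at most 2.24 in the other lines. It is listed through DNMT_WT ESC alone, so its gap was set by the listing.

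Gnai2, an inhibitory G-protein alpha subunit, fell from 2.63 to 1.15, with all 11 contacts lower. The 7 contacts at 100 to 115 kb, most of them in Rbm5, had a median of 9.11 in DNMT_WT ESC and 2.24 in EpiLC. TET_KO was high at both stages there (8.45 and 10.21), and DNMT_KO (1.11 and 2.11) and TET_WT (1.19 and 2.11) were low at both. Emx2os, the antisense transcript of the cortical regulator Emx2, had the same order of columns: its value was 2.23 in DNMT_WT ESC, 1.13 in DNMT_WT EpiLC, 2.69 and 2.58 in TET_KO, and between 0.82 and 1.12 in the 4 columns of DNMT_KO and TET_WT.

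On chr14 near 21 Mb, several neighbouring promoters lost contacts with Adk, the gene of adenosine kinase, in more than 1 line. Samd8, which makes a sphingolipid, fell from 2.36 to 1.12 over 61 contacts, 60 of them in Adk, with 31 at 5 or more in ESC and 2 in EpiLC. In DNMT_KO these numbers were 19 and 3, in TET_WT 40 and 21, and in TET_KO 29 and 21. U12.4, Gm15935 and A430057M04Rik, whose 16, 17 and 12 contacts all lay in Adk, fell by 1.43, 1.23 and 1.09, and in DNMT_KO by 1.33, 1.38 and 1.92. Their differences in the TET lines lay between -0.999 and -0.33. These 4 promoters share their other ends and are not independent. Yipf4 (2.07 to 0.98) and Shq1 (2.13 to 1.05) complete the named falls; the next promoter outside the set was Sez6l at -1.075, against -1.080 for Shq1.

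**Figure D4:**
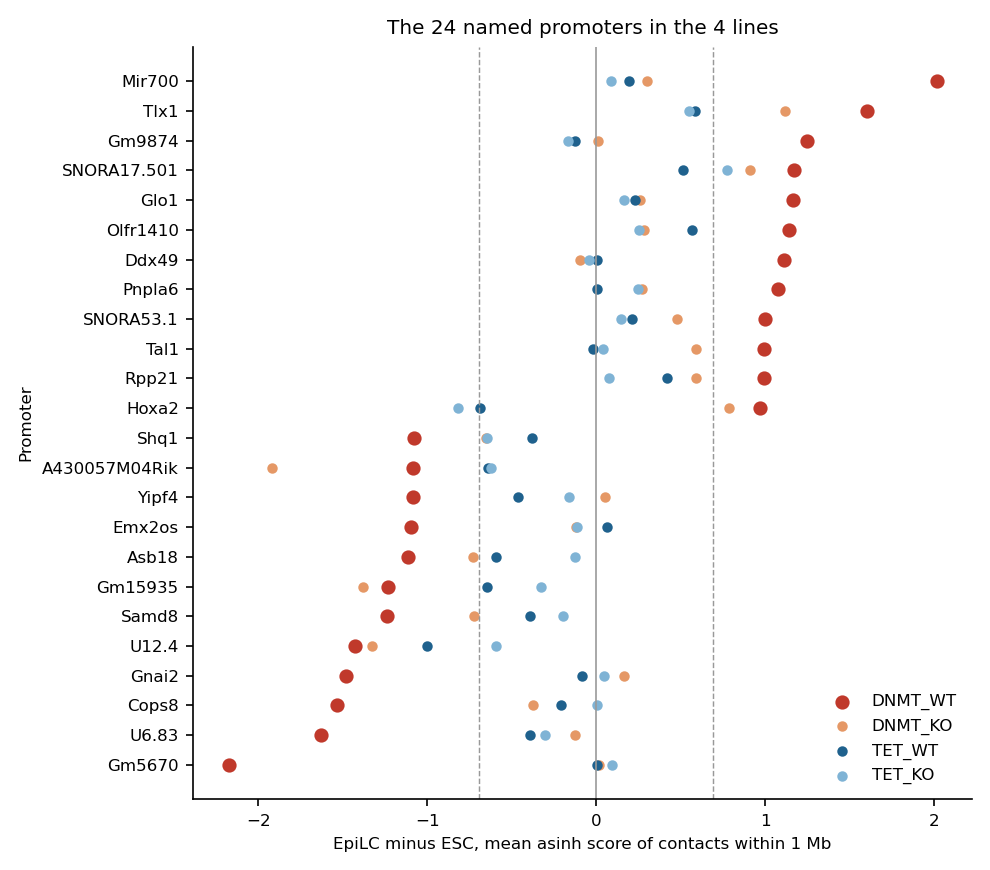
The EpiLC minus ESC difference of the mean asinh score within 1 Mb is plotted for the 24 named promoters in DNMT_WT (large red points) and the other 3 lines, with dashed lines at a doubling. The promoters were chosen for their DNMT_WT values; the Adk neighbours on chromosome 14 and Tlx1 lie on the same side of 0 in all 4 lines, while Hoxa2 lies below 0 in both TET lines.

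Single contacts with the largest changes often belonged to the same places. Among gains within 1 Mb, besides those of Mir700, Lhx5, Tbx3 and Gm9874, Skint8 had a contact at 756 kb that went from 0 to 17.24, but scored between 6.99 and 15.14 in the other 6 columns. Man1c1, U1.92 and Gm9947 had contacts that went from 0.77 to 25.66, from 0 to 10.08 and from 0 to 9.96. The Man1c1 contact also scored 17.92 and 28.10 in DNMT_KO. Outside DNMT_WT EpiLC, the U1.92 contact scored at most 3.67 and the Gm9947 contact at most 2.38. Both are listed through DNMT_WT EpiLC alone, so their gaps were set by the listing. Among losses, olfactory receptor promoters were named 3 times: Olfr749 (14.53 to 0), Olfr583 with Olfr640 (13.25 to 0) and Olfr1115 with Olfr1140 (12.16 to 0). The last was also high in DNMT_KO ESC (12.31) and TET_WT ESC (10.01), whereas the Olfr749 contact scored at most 2.17 outside DNMT_WT ESC. That contact is listed through DNMT_WT ESC alone, so its gap was set by the listing. The 4732456N10Rik promoter lost a contact of 11.79, which scored at most 2.95 in any other column and so is also listed through DNMT_WT ESC alone.

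The gene lists are read against all promoters, of which 2.21% were higher and 4.13% lower by a doubling, with a median of -0.03. These shares leave few calls to be counted in lists of this size. Of 20 naive pluripotency promoters with a value, 0 were higher and 2 lower, with a median of -0.07. Nr0b1, an orphan nuclear receptor of naive cells, fell from 1.86 to 1.06, and Socs3, which dampens Jak and Stat signals, from 2.43 to 1.72. The Socs3 value rests on 3 contacts. At least 2 of them reached 5 in DNMT_WT ESC alone (6.38 and 5.15), so their fall in DNMT_WT was in large part set by the listing. Lifr, the Lif receptor, went from 2.25 to 1.60 with 5 contacts lost and 0 gained. Nr5a2, an activator of Pou5f1, stood at 0.52. The Nr0b1 difference was negative in each line (-0.79, -0.92, -0.44 and -0.999 in DNMT_WT, DNMT_KO, TET_WT and TET_KO), as was that of Socs3 (-0.71, -0.69, -0.76 and -0.20). Of 19 formative and primed epiblast promoters, 1 was higher and 1 lower, with a median of -0.07. Utf1, a chromatin factor of pluripotent cells, went from 1.57 to 2.27, and Etv5, an effector of Fgf signalling, from 1.62 to 2.29 (11 contacts; 0.71, 0.72 and 0.30 in DNMT_KO, TET_WT and TET_KO). The Utf1 difference, over 4 contacts with 0 gained, was 0.694, just past a doubling (0.693), and 0.692 without scaling. In DNMT_KO, TET_WT and TET_KO it was 1.41, -0.46 and -0.09. Tdgf1, the Nodal co-receptor, fell from 2.27 to 0.98, while its differences in the other lines lay between -0.12 and 0.38. Igfbpl1 stood at -0.60.

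Germ-layer regulators are read against the same 2.21% and 4.13%. Of 21 neuroectoderm promoters 1 was higher and 0 lower (median 0.02), led by Neurog1, a proneural factor, from 1.42 to 2.18; Hes5 went from 1.78 to 2.29, Barhl2 from 1.34 to 1.82 and Six3 from 2.11 to 1.59. Of 21 mesoderm and primitive streak promoters none passed a doubling (median -0.03). Eomes, which drives mesendoderm, went from 2.08 to 1.40, and T, the Brachyury gene, from 2.17 to 1.63. None of 9 endoderm promoters passed either (median 0.07), with Hhex at -0.42 and Foxa1 at 0.41. Among 20 hematopoietic and endothelial promoters 2 were higher and 0 lower (median -0.09): Tal1, described above, and Lyl1, its close relative, from 1.86 to 2.57 with 7 contacts gained and 0 lost. Lyl1 was positive in each line (0.27, 0.63 and 0.23 in DNMT_KO, TET_WT and TET_KO). Cebpb, a myeloid factor, went from 2.32 to 1.74. Over the contacts of this list, 11.1% were gained and 8.02% lost, against 6.67% and 7.24% of all contacts within 1 Mb. Of its 36 gained contacts, 11 were of Tal1 and 7 of Lyl1. Other lists departed as well, with 4.41% gained and 11.5% lost for trophoblast and 8.46% and 10.3% for naive pluripotency.

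Lists of other lineages were described in the same way. Of 13 trophoblast promoters 0 were higher and 1 lower (median -0.08), the latter being Tcfap2c, now named Tfap2c, at -0.70 over 29 contacts. Of 12 fibroblast promoters, listed as markers of feeder cells, 0 were higher and 1 lower, with a median of -0.29, the lowest of the 20 lists; Twist2 fell from 1.98 to 1.02 over 4 contacts and Fbln2 went from 2.16 to 1.55, while Col1a2 stood at 0.69. Among 31 Hox promoters 3 were higher and 2 lower (median -0.04). Hoxd11, with 3 contacts, fell from 2.58 to 0.99. Of 60 other homeobox promoters 1 was higher and 1 lower (median 0.03): Tlx1, and Vax1, a regulator of the optic stalk, from 2.28 to 1.52. Lhx9 went from 1.89 to 2.52 over 54 contacts, with 13 gained and 0 lost. None of 46 Fgf, Wnt, Nodal and Bmp ligand promoters passed a doubling, with Wnt4 at -0.59, Wnt5b at 0.57 and Inhba at 0.56; Inhba was at 0.53, 0.73 and 0.58 in DNMT_KO, TET_WT and TET_KO. The ligand median was -0.01, and 0.01 without scaling.

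Genes that act in or depend on DNA methylation were read against the same shares of 2.21% and 4.13%. None of 13 promoters of methylation writers, erasers and partners passed a doubling (median 0.11); Uhrf1, which brings Dnmt1 to replicated DNA, went from 1.52 to 2.13 and Dnmt3l from 2.16 to 2.54. None of 19 germline promoters silenced by methylation passed (median 0.05), with Syce1 at -0.63 and Dazl at -0.49. Of 31 imprinted promoters 1 was higher and 1 lower (median -0.06). Ppp1r9a went from 1.60 to 2.34, and Cobl from 2.11 to 1.41, where its contacts with Ddc, 623 and 634 kb away, went from 10.71 to 1.02 and from 10.86 to 0.46. None of 22 clustered protocadherin promoters passed (median -0.09).

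Among gene families outside development, olfactory receptor promoters passed a doubling more often both ways, mostly as falls. Of all promoters with 10 or more contacts, 1.17% were higher and 1.89% lower, so calls go with few contacts. The number of contacts was not matched here. Of 579 with a value, 22 were higher (3.80%) and 56 lower (9.67%), against 2.21% and 4.13% over all promoters, and their median was -0.11. It was -0.28, -0.22 and -0.23 in DNMT_KO, TET_WT and TET_KO. In the cluster at chr17:38 Mb all 7 promoters were below 0, with a median of -0.81, and medians of -0.60, -0.65 and -1.02 in the other lines. Neighbouring receptors share other ends and are not independent. Of 201 zinc-finger Zfp promoters 3 were higher and 6 lower (median 0.09), of 46 ribosomal protein promoters 0 and 3 (median 0.08), of 33 histone promoters 0 and 0 (0.06), and of 26 collagen promoters 0 and 1 (-0.07). The members with the largest differences were Olfr295 (1.52), Zfp111 (-1.004), Rps27l (-1.19), Hist1h2bg (-0.47) and Col6a5 (-1.25).

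**Figure D5:**
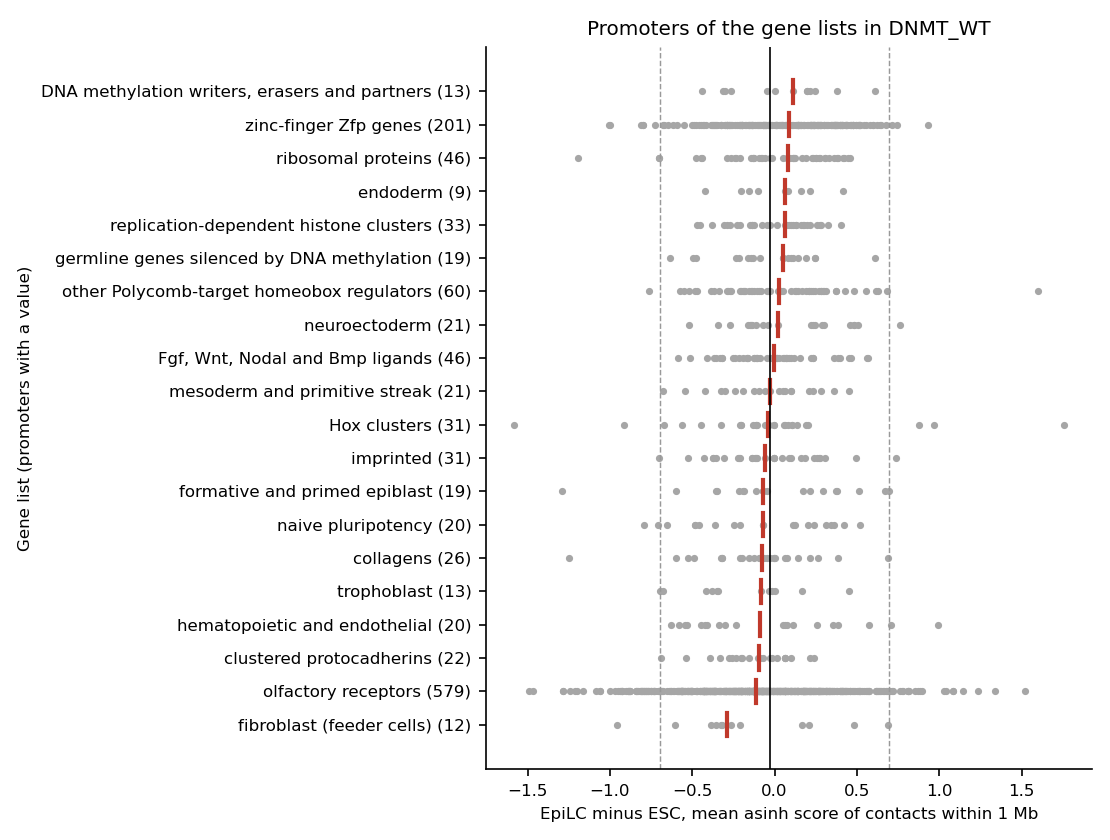
The EpiLC minus ESC difference within 1 Mb in DNMT_WT is shown for each promoter (grey points) of 20 gene lists, with the list median in red, the median of all promoters as a black line and a doubling dashed. Medians lie between -0.29 (fibroblast) and 0.11 (DNA methylation writers, erasers and partners), and most members lie within a doubling.

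Promoter CG content was compared where a RefSeq promoter of the bait's own symbol starts in the fragment (11372 of 20017 baits). Promoters lower in EpiLC by a doubling had a median of 8 CG in the 250 bases before the start (345 promoters), those higher 10.5 (210) and the remaining 11 (8411). In the other lines the lower group had medians of 4 in DNMT_KO, 8 in TET_WT and 4 in TET_KO, and the higher group 13, 11 and 13, against 11 for the remaining promoters of each line. Only the letters CG were searched, which read the same on both strands. This is a description with no test.

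How far the DNMT_WT changes were shared was described over the 15228 promoters with contacts within 1 Mb. The stage difference of DNMT_WT correlated with that of DNMT_KO at r = 0.39, of TET_WT at 0.29 and of TET_KO at 0.26, across promoters, which are not independent and share normalisation. By a doubling, DNMT_KO had 536 promoters higher (3.52%) and 765 lower (5.02%), TET_WT 255 (1.67%) and 559 (3.67%), and TET_KO 290 (1.9%) and 535 (3.51%). Of the 336 promoters higher in DNMT_WT, 251, 205 and 201 were above 0 in DNMT_KO, TET_WT and TET_KO; of the 629 lower, 504, 492 and 468 were below 0. Over all 15228 promoters, 64.8%, 61.1% and 60.6% had the same sign in these lines, so the TET counts for the 336 were at that share. At single contacts, 12.003% of the gains in DNMT_WT were also gains in DNMT_KO, 7.76% in TET_WT and 6.18% in TET_KO, which is 8.77%, 6.81% and 5.48% of the lists of those lines. Over all contacts within 1 Mb those lines gained 9.12%, 7.58% and 7.49%, so the TET overlaps were near or below that share. Of the losses in DNMT_WT, 8.62%, 4.96% and 5.53% were also lost in DNMT_KO, TET_WT and TET_KO, which lost 7.58%, 5.54% and 5.75% of all contacts.

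Whether a stage difference was particular to DNMT_WT was tested with limma on the 4 stage differences of each promoter, DNMT_WT against the mean of the other 3 lines. The lone DNMT_WT value was assumed to vary like the other lines. Each knock-out was made from a wild type, so the lines are not fully independent. A contact is listed only where some column reached the calling threshold, so a high DNMT_WT score can itself have admitted a contact. The limma test does not allow for this, and how far the listing set its calls was not tested. Over all contacts, 7 promoters were higher in DNMT_WT (0.0447%) and 3 lower (0.0191%) at a Benjamini-Hochberg adjusted p under 0.05, with 1081 of 15677 at an unadjusted p under 0.05. Within 1 Mb it was 3 higher (0.0197%) and 3 lower, with 1037 of 15228 unadjusted. Leaving out 1 other line gave between 24 and 45 higher and between 17 and 25 lower over all contacts, and between 8 and 37 higher and 17 and 47 lower within 1 Mb. Without DNMT_KO, 45 were higher and 17 lower over all contacts, and 37 and 47 within 1 Mb. These were the largest counts but for promoters lower over all contacts, where leaving out TET_WT gave the most (25).

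The promoters called by limma that are named here rest on 3 to 8 contacts each. The 5 largest of those higher over all contacts were Ipcef1 (1.85 ± 0.28, limma SE, adjusted p 0.0177), Ccnl2 (1.73 ± 0.21, adjusted p 0.00694), U6.731 (1.57 ± 0.24, adjusted p 0.0188), Fastkd5 (1.53 ± 0.26, adjusted p 0.0479) and Mir429 (1.40 ± 0.21, adjusted p 0.0177). Ccnl2 is a cyclin linked to splicing, Fastkd5 a mitochondrial RNA-processing factor, and Mir429 a member of the epithelial miR-200 family. Ccnl2, U6.731 and Mir429 lie near the end of chromosome 4, and within 1 Mb their stage differences in DNMT_WT were -0.16, -0.36 and 0.16. Each has the same pair of contacts with chr18:35579731-35582027 and chr18:35590442-35593391, so the 3 calls share their other ends. These 6 contacts scored 0 in DNMT_WT ESC and from 21.2 to 85.9 in DNMT_WT EpiLC. Their medians were 29.3 and 23.1 in DNMT_KO, 10.3 and 13.8 in TET_WT, and 7.74 and 0.99 in TET_KO. Leaving out chromosome 4 contacts over 5 Mb left the 3 limma differences at 1.73, 1.57 and 1.40. All 3 contacts of Ipcef1 lay beyond 1 Mb or on another chromosome. Lower were 4930455C21Rik, now named Timmdc1, an assembly factor of respiratory complex I (limma difference -1.94 ± 0.25 within 1 Mb, adjusted p 0.00598), Morn3 (-1.89 ± 0.25, adjusted p 0.00598) and SNORA25.10 (-1.71 ± 0.24, adjusted p 0.00642). Within 1 Mb, Cln8, a protein of the endoplasmic reticulum (1.53 ± 0.23, adjusted p 0.0141), and Slc38a8, an amino acid transporter (1.37 ± 0.20, adjusted p 0.0106), were higher, besides Fastkd5 (adjusted p 0.0419), whose call within 1 Mb was lost without scaling.

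The promoters with the largest rises and falls were not called as particular to DNMT_WT. The limma difference from the other lines within 1 Mb was 1.82 ± 0.48 for Mir700 (adjusted p 0.431), 0.85 ± 0.54 for Tlx1 (adjusted p 0.824) and 0.79 ± 0.39 for Tal1 (adjusted p 0.745). For Gm9874 it was 1.34 ± 0.26 (adjusted p 0.116), and for Ddx49 1.15 ± 0.27 (adjusted p 0.267). For Gm5670 it was -2.22 ± 0.60 (adjusted p 0.458), for Cops8 -1.34 ± 0.34 (adjusted p 0.386) and for Gnai2 -1.53 ± 0.36 (adjusted p 0.281). These limma values do not show that the lines acted alike.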

How the data were processed

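DNMT_WT ESC and EpiLC were compared in a table of CHiCAGO scores that the authors deposited, 1 column per line and stage; how the 2 replicates were joined, the aligner and the CHiCAGO release were not given in the sources used here. Tools per the submitters' processing notes were Trim Galore 0.6.5 and cutadapt 2.3, with the build GRCm38. On that build, 98.2% of baits whose symbol RefSeq holds were at most 2 kb from the gene. From the values, scores are never negative and each listed contact reaches 5 in some column, so values describe contacts called somewhere. Depth is unknown and no column has an error.

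Scores were transformed by asinh and quantile-normalised between the 8 columns over contacts scored in all (15344 of 260860 were left out), and averaged per promoter with at least 3 contacts. Gained and lost contacts used unscaled scores. No test fits 1 column per group. Line differences were tested with limma 3.58.1 in R 4.3.3 (lmFit, eBayes with trend, Benjamini-Hochberg), tested on simulated data first. Named are the 12 largest rises and falls within 1 Mb among promoters with at least 10 contacts, a symbol and the same sign over all contacts; 8 contacts each way, 1 per bait; 5 far promoters and window pairs; up to 4 members per list; and 5 promoters each way past the limma threshold. Members, lists and rules were chosen with earlier results of these data known. Alternatives were the score limit, scaling, transform, contact minimum, distance and lines used. Promoter and microRNA sequences are RefSeq's (GRCm38); no promoter is printed for genes without an entry starting in the bait.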

Additional observations from a re-analysis of the deposited data

Results flagged for a closer look

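Promoters whose stage difference in DNMT_WT was set apart from that of the other 3 lines by limma at an adjusted p under 0.05 are collected here, as the DNMT_WT difference minus the mean of the other lines. The limit set by the listing of contacts, given with the limma test, holds for these calls. High DNMT_WT scores can themselves have admitted the contacts they rest on. Over all contacts the 5 largest of 7 higher in DNMT_WT were Ipcef1 (1.85), Ccnl2 (1.73), U6.731 (1.57), Fastkd5 (1.53) and Mir429 (1.40), and the 3 lower were 4930455C21Rik (-1.94), Morn3 (-1.89) and SNORA25.10 (-1.71). Within 1 Mb they were Cln8 (1.53), Fastkd5 (1.53) and Slc38a8 (1.37), higher, and 4930455C21Rik (-1.94), Morn3 (-1.89) and SNORA25.10 (-1.71), lower.

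The number of contacts within 1 Mb at a score of 5 or more was lower in EpiLC than in ESC in DNMT_WT (EpiLC minus ESC -4852) and higher in EpiLC in DNMT_KO (4247), TET_WT (5531) and TET_KO (6245). This difference was not tested.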

How the results depend on the processing

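At a score of 7 or more, the EpiLC share of the ESC and EpiLC counts was 47.5% within 1 Mb (48.5% at 5), 80.0% at 1 to 10 Mb (74.2%) and 85.7% over 10 Mb (83.4%). Without promoters on chromosome 4 it was 64.0% at 1 to 10 Mb, 61.1% over 10 Mb and 65.4% between chromosomes (71.2% with them). Contacts of other promoters with chromosome 4 stay in the last of these. Within 1 Mb, a limit of under 5 in the other column gave 37100 gained and 42315 lost, and under 1 gave 2709 and 2259; beyond 1 Mb, 1874 were gained (5233 as deposited) after quantile normalisation, which also drops contacts without a score in all 8 columns, so scaling and dropping cannot be told apart there. Over all contacts, promoters past a doubling numbered 212 higher and 268 lower with log2(score + 1), 967 and 1318 with a minimum of 1 contact, 162 and 150 with a minimum of 10, and 0 and 0 for chromosome 4 contacts over 5 Mb only (2 promoters). Chosen after seeing the data, promoters off chromosome 4 within 1 Mb gave 304 higher, and contacts scored in both DNMT_WT columns gave 106 higher and 0 lower for chromosome 4 contacts over 5 Mb. For limma, without 1 other line the range was 24 to 45 higher and 17 to 25 lower over all contacts, and 8 to 37 and 17 to 47 within 1 Mb; a minimum of 10 contacts gave 19 higher. The cause of these shifts was not tested. Of the named limma calls, Fastkd5 within 1 Mb (1.54 without scaling) lost its call; none of those run changed sign. No paired analysis was possible because the columns carry no replicate number.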
